A study of Mus musculus with 6 samples.

Results

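The 10 genes described here act at the cell surface and outside the cell in Wnt signalling, together with its intracellular effector. They were 4 Frizzled receptor genes (Fzd1, Fzd2, Fzd7 and Fzd8), the co-receptor genes Lrp5 and Lrp6, the beta-catenin gene Ctnnb1, and 3 genes of secreted proteins, Sfrp1, Sfrp2 and Dkk3. They were taken by name, through every probe set (the group of short probes that reads 1 transcript) annotated to exactly 1 of these genes. No measured value entered this rule, but the genes were chosen with earlier results of these data known. The rule gave 20 probe sets on the MOE430A array and 3 on MOE430B, for 10 of the 18194 genes measured in the series. The cells were 10T1/2, a mouse embryonic fibroblast line that can form muscle, fat, cartilage and bone cells in culture. They were grown in DMEM with 10% FBS, without any treatment, and harvested when 80% confluent. Samples 1, 4 and 5 each went to 1 array of each of the 2 designs, which made 1 group of 3 samples and 6 arrays. The labels say that these were the best samples and leave unsaid whether each is a culture of its own, and the design text counts 1 sample with 6 replicates, so differences between them may be technical.

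Wnt proteins are secreted lipid-bearing ligands that bind the cysteine-rich domain of Frizzled receptors and, with Lrp5 or Lrp6, form a signalling complex at the membrane. When it forms, the destruction complex around Axin, Apc and glycogen synthase kinase 3 stops marking beta-catenin for degradation, and beta-catenin enters the nucleus and acts with Tcf and Lef factors. Secreted Frizzled-related proteins carry a cysteine-rich domain like that of the receptors and can bind Wnt ligands outside the cell. In mesenchymal cells the pathway is known for favouring bone over fat and cartilage fates.

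Signal is the linear MAS5 intensity of a probe set on 1 array. To judge background, genes of distant tissues were read on every array, and their 95th percentile, the limit, lay at 1360.4, 1577 and 967 on MOE430A and at 2062, 1611 and 1444 on MOE430B in samples 1, 4 and 5. Detected here means above the limit on all 3 arrays of a design. On MOE430B only 4 background probe sets were present, so that limit is imprecise. With 1 group and 1 array per sample and design, no test between samples was possible, no p-value is given, and the number of arrays limits the precision. Of 8 fibroblast markers 7 were detected, whereas 0 of 5 endothelial, 0 of 5 skeletal muscle, 0 of 4 adipocyte, 0 of 5 cartilage and bone, 0 of 5 neuron and glia, 1 of 5 epithelial (Epcam) and 1 of 5 leukocyte markers (Cd14) were. No marker signal was at 0. Most of the epithelial signal was 1 probe set of Epcam on MOE430B (31381.6, 139544 and 29693.1), while the keratin genes and Cdh1 were not detected. Of the adipocyte list, Fabp4, a fatty acid carrier, was above the limit in sample 5 alone (266, 250.5 and 2991), and Pparg, Adipoq and Cebpa lay under it on every array. The 3 arrays of a design came from 1 lot and 1 day, and the MOE430A array of sample 5 went through another fluidics station than the other two, which cannot be told apart from the sample.

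The samples also differed in RNA quality and in fibroblast genes. The ratio of 3′ to 5′ signal for Gapdh, which climbs when labelled RNA is short, was 24.7, 15.0 and 10.6 in samples 1, 4 and 5 on MOE430A and 23.4, 14.0 and 11.5 on MOE430B. The beta-actin ratio was 17.5, 9.57 and 8.68 on MOE430A and 20.2, 8.23 and 10.8 on MOE430B. The signals of the 8 fibroblast markers summed to 382328, 374395 and 160830.3. Col1a2 made the largest part (183221, 161044 and 43698.5), and the markers went both ways: Vim (36684, 99725 and 76354) and Pdgfra (8198, 4006 and 8560.1) were higher in sample 5 than in sample 1. Sample 1 thus had the highest 3′ to 5′ ratios, and sample 5 the lowest fibroblast marker sum, while Fabp4 was high there. The part of any of these in the differences described below was not tested.

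**Figure D1:**
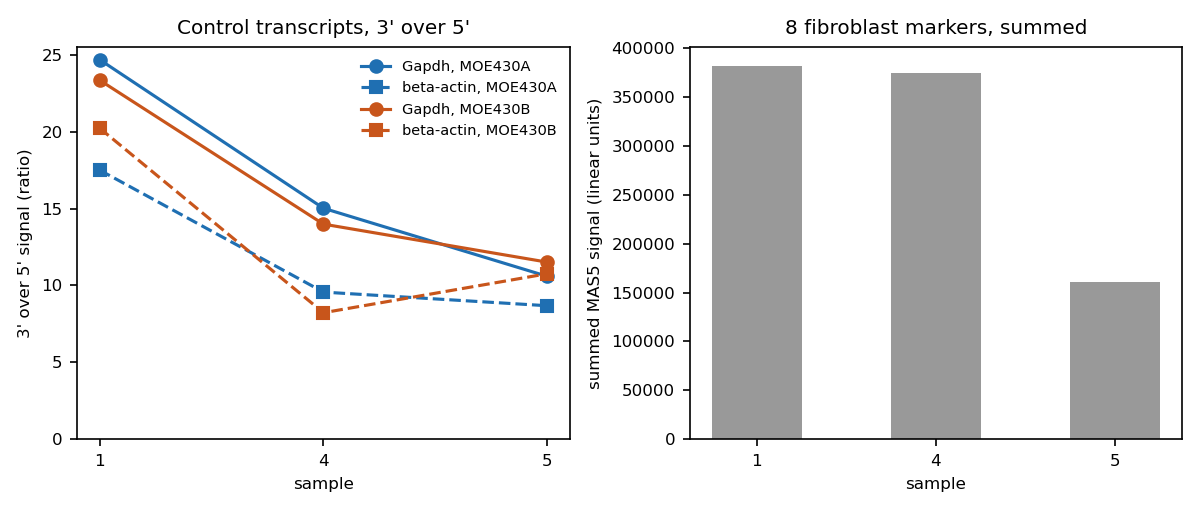
The left plot gives the ratio of 3′ to 5′ signal (y, no unit) of Gapdh and beta-actin in samples 1, 4 and 5 (x) on both designs, with lines joining the values of 1 transcript and design. The right plot gives the summed linear signal of 8 fibroblast markers per sample as bars; the ratios are highest in sample 1 (17.5 to 24.7) and the marker sum is lowest in sample 5 (160830.3).

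Promoter sequence was taken from the RefSeq table (GRCm38.p6) for 4 of the 10 genes, Fzd1, Fzd7, Ctnnb1 and Sfrp2. The search left out member starts on a chromosome, so the table may hold sequence for more of the 10 genes. All 4 are shown, since they include Fzd1 and Sfrp2, whose signals differed widely between samples, and Ctnnb1, which was bright and nearly level. Each line holds the 250 bases before the annotated start, 5′ to 3′ on the strand of the gene. Fzd1 lies at chr5:4758217-4758466 (minus strand), Fzd7 at chr1:59481897-59482146 (plus), Ctnnb1 at chr9:120933150-120933399 (plus, the first of 2 annotated starts) and Sfrp2 at chr3:83766071-83766320 (plus). Capitals mark matches on either strand to the Tcf/Lef core (CTTTG followed by AA, AT, TA or TT), the GC box (GGGCGG), the CCAAT box (CCAAT) and the TATA box (TATAAA).
Fzd1: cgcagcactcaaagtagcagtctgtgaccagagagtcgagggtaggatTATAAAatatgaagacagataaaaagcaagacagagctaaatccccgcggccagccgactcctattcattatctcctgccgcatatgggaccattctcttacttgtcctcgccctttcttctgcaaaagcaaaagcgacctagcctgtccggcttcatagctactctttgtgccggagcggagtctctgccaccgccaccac
Fzd7: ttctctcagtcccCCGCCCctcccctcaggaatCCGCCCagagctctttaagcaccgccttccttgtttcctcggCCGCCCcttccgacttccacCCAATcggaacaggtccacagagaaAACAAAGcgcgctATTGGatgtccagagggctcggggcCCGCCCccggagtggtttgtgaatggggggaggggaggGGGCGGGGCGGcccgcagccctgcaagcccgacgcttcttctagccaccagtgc
Ctnnb1: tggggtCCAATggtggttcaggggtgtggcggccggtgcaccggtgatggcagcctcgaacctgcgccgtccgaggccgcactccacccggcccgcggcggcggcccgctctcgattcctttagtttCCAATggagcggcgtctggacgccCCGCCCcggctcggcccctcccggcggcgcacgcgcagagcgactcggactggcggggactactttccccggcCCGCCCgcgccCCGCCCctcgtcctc
Sfrp2: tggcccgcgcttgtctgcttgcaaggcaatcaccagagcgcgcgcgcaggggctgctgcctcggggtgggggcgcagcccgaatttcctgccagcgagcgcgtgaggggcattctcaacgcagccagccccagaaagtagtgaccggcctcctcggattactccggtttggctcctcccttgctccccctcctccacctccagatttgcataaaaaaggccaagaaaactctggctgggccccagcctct

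The windows of Ctnnb1 and Fzd7 held GC and CCAAT boxes, and that of Sfrp2 held none of the 4 motifs. Fzd7 had 6 GC boxes, of which 2 overlap each other, 2 CCAAT boxes and 1 match to the Tcf/Lef core. Ctnnb1 had 3 GC boxes and 2 CCAAT boxes, and Fzd1 had 1 TATA box near the upstream end of the window. The window of the second Ctnnb1 start, not printed, had 2 GC boxes, 0 CCAAT boxes, 1 TATA box and 43 CpG dinucleotides. It overlaps the first window, and its 2 GC boxes are sites already marked there. Of all 32851 windows of this length, 14.8% held the Tcf/Lef core, 32.7% a GC box, 33.8% a CCAAT box and 12.4% a TATA box. CpG dinucleotides numbered 12 in Fzd1, 16 in Sfrp2, 17 in Fzd7 and 35 in Ctnnb1, where the median window held 6. These matches describe letters and were not tested for any part in the signals.

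Among the receptors, Fzd1 and Fzd2 were detected and were lower in sample 5 than in samples 1 and 4. Fzd1 encodes a Frizzled receptor that can signal through beta-catenin. On MOE430B its probe set 1437284_at read 20158, 27054 and 5826 in samples 1, 4 and 5, or 17679 ± 10829 (SD, n = 3). Sample 5 was 3.46-fold below sample 1 and 4.64-fold below sample 4, and samples 1 and 4 differed by 1.34-fold. The other Fzd1 probe set, 1422985_at on MOE430A, read 243, 285 and 156 and was below the limit on every array. Its samples stood in the same order, which at these signals is a description and no second measurement of the level. In bulk RNA, fewer cells with a transcript and less of it per cell cannot be told apart, here or in the differences that follow.

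Fzd2, a receptor of the same subgroup that also takes part in signalling apart from beta-catenin, had 3 probe sets on MOE430A, built on 1 source sequence. Probe set 1418533_s_at, whose ending marks possible matches to several transcripts, read 4354, 5071 and 1820.4 (3749 ± 1708, SD, n = 3). It was 2.39-fold lower in sample 5 than in sample 1 and 2.79-fold lower than in sample 4. The second, 1418532_at, read 2219.7, 3399 and 1436, which put sample 5 1.55-fold below sample 1 and 2.37-fold below sample 4. For the third, 1418534_at, the values were 5348, 2496 and 734, and the last was under the limit. Sample 5 was there at least 5.53-fold below sample 1 and at least 2.58-fold below sample 4. Sample 5 was thus the lowest on 3 of 3 Fzd2 probe sets, but they disagreed on samples 1 and 4. Sample 4 was 1.16-fold higher than sample 1 by 1418533_s_at, 1.53-fold higher by 1418532_at and 2.14-fold lower by 1418534_at.

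Fzd7, a receptor that is prominent in stem and progenitor cells, stood near the limit, where its variation is not measured. Probe set 1450044_at read 1226, 1294 and 1096 (1205 ± 101, SD, n = 3), above the limit in sample 5 only, where the limit was lowest. No fold is given, since the brighter samples lay under their own limits. The other probe set, 1450043_at from the same source sequence, read 30.1, 49.3 and 41.5. With background drawn from gene families of smell, taste, hair, lens and similar tissues, a choice made after seeing the data, Fzd7 was the added gene among 5 detected. The planned limit at the 90th percentile of background gave the same 5 genes. Fzd8 was above the limit in sample 1 alone: 1423348_at read 1423, 169 and 329, and the MOE430B probe set 1445815_at read 212, 158 and 423. The fold of sample 1 over sample 5 was at least 1.47, and none can be given over sample 4, whose limit lay above the signal in sample 1. The 2 Fzd8 probe sets did not share the high value of sample 1.

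**Figure D2:**
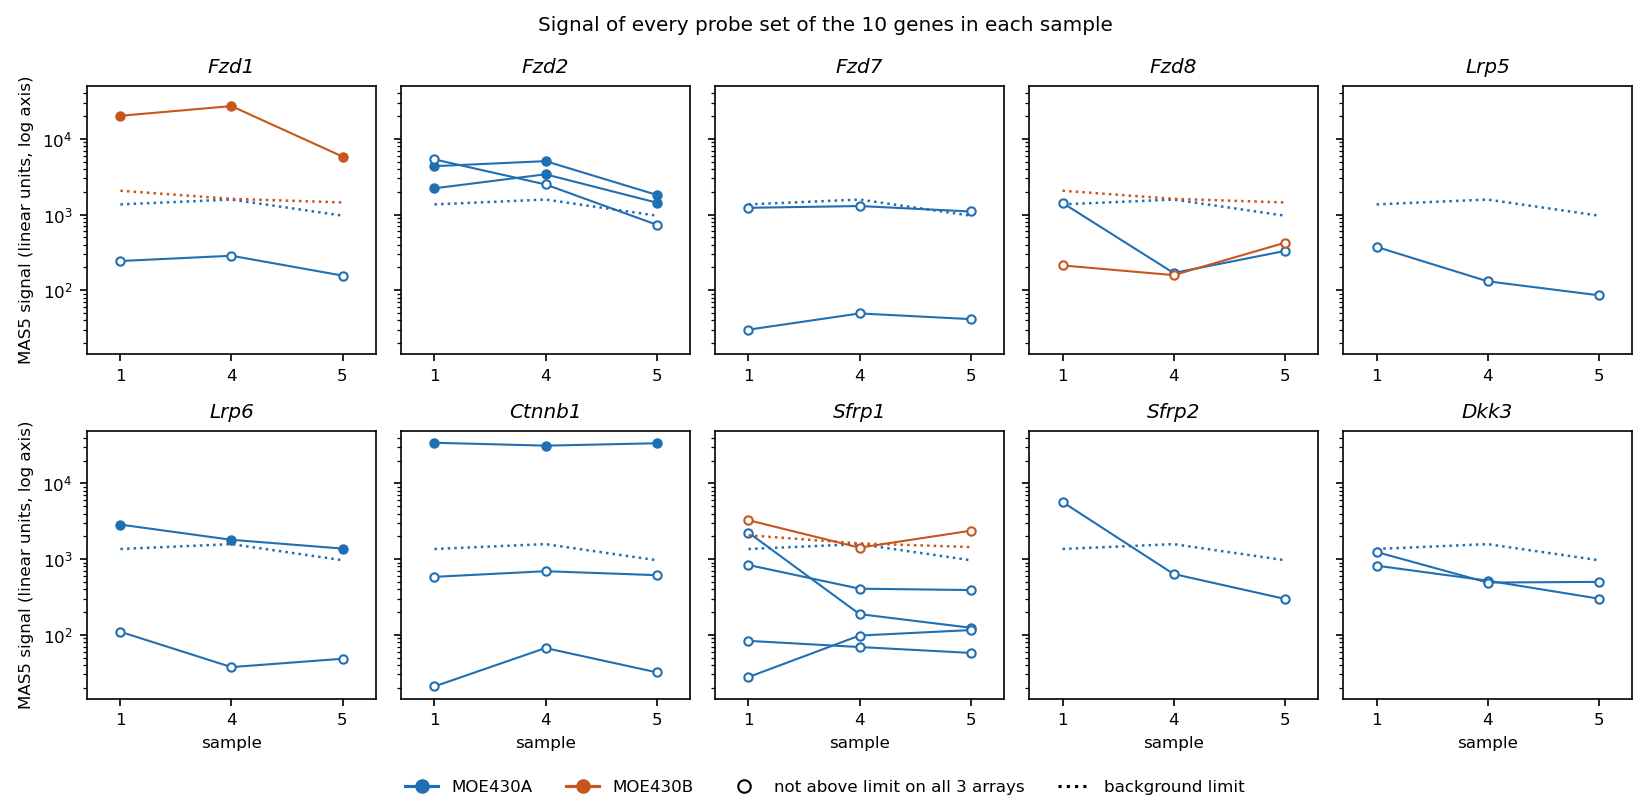
Linear MAS5 signal (y, log axis) of each of the 23 probe sets in samples 1, 4 and 5 (x), with 1 panel per gene; blue is MOE430A and orange MOE430B, filled points belong to probe sets above the limit on all 3 arrays, dotted lines are the limits, and lines join 1 probe set without implying an order of samples. Fzd1 and Fzd2 are lowest in sample 5, Sfrp2 is high in sample 1 (5679 against 635 and 298), and the brightest Ctnnb1 probe set stays between 31539.8 and 34425.

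Of the co-receptors, Lrp6 was detected and Lrp5 was not. With the limit at the 99th percentile of background, Lrp6 and Fzd2 were no longer detected, and Fzd1 and Ctnnb1 were. Lrp6, the co-receptor phosphorylated on its tail when Wnt binds, read 2857, 1798 and 1377 on probe set 1428500_at (2011 ± 762, SD, n = 3). Sample 1 was the highest, 1.59-fold above sample 4 and 2.07-fold above sample 5, and samples 4 and 5 differed by 1.31-fold. With the arrays scaled to a common median the difference of sample 5 from sample 1 was -0.91 (log2) in place of -1.05, within 2-fold. Its second probe set, 1451022_at, read 109, 37.4 and 48.3 and lay under the limit throughout. Lrp5, best known from bone mass, had 1 probe set, 1449299_at, which read 373, 131 and 85.7, below the limit in every sample, so no order of samples is given.

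Ctnnb1, which encodes the transcriptional effector that also links cadherins to actin, was the steadiest of the detected genes. Probe set 1420811_a_at read 34425, 31539.8 and 33907 (33290.5 ± 1538, SD, n = 3), between 20.0 and 35.1 times the limit. Its extremes differed by 1.09-fold, and under quantile normalisation sample 5 stood above sample 1 by 0.20 (log2) in place of 0.02 below it, so no order of the samples is given. The other probe sets were far dimmer. 1450008_a_at, from the same source sequence, read 583, 692 and 614, and 1430533_a_at read 20.8, 66.9 and 31.9, all under the limit. Gene detection here rested on 1 of 3 probe sets. These values are of RNA, whereas the pathway acts on beta-catenin protein.

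Among the secreted inhibitors, 0 of 3 genes met the rule of 3 arrays. Sfrp2 passed the limit in sample 1 alone, Sfrp1 on MOE430B in samples 1 and 5, and Dkk3 in no sample. Sfrp2, a secreted Frizzled-related protein of mesenchyme, read 5679, 635 and 298 on its probe set 1448201_at. The value in sample 1 was 4.17 times the limit and the others were below it, so that sample 1 was at least 3.60-fold above sample 4 and at least 5.88-fold above sample 5. With 1 array per sample and 1 probe set, this difference has no replicate check.

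Sfrp1, a related inhibitor that can also bind Frizzled receptors, had 4 probe sets on MOE430A and 1 on MOE430B. The MOE430B probe set 1428136_at read 3264, 1416 and 2369.7 (2349.9 ± 924, SD, n = 3), above the limit in samples 1 and 5. Without sample 4 this probe set was called detected, and 2 of 3 on MOE430B in place of 1. Sample 1 was at least 2.03-fold above sample 4 and 1.38-fold above sample 5. The former lay within 2-fold with the arrays scaled to a common median (-0.93 in place of -1.02, log2) and was not called with the gene-family background. On MOE430A, 1438620_x_at read 2238, 187.5 and 124, above the limit in sample 1 only, at least 1.42-fold above sample 4 and at least 2.32-fold above sample 5. The remaining 3, built on 1 source sequence, stayed under the limit on every array: 1448395_at read 836, 406 and 390.0, 1416594_at 83.1, 68.9 and 57.6, and 1460187_at 27.6, 97.7 and 115. Sample 1 was thus the highest on the 2 Sfrp1 probe sets that passed the limit on any array, 1428136_at and 1438620_x_at. The other 3 give no order of samples. Samples 4 and 5 have no measured order on MOE430A, where both lay under the limit on all 4 probe sets.

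Dkk3, a divergent member of the Dickkopf family whose role in Wnt inhibition is less settled than that of Dkk1, was below the limit on both probe sets. 1448669_at read 1241, 489.9 and 500.0, and 1417312_at read 818, 519 and 300.4, both from 1 source sequence. Sample 1 was the highest on both, but no fold between samples can be given from signals under the limit.

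Across the 10 genes, detection was near that of the whole arrays, while differences past 2-fold between samples 1 and 5 ran 1 way. On MOE430A 4 of 20 probe sets were detected, against 21.2% of all those naming 1 gene, and on MOE430B 1 of 3, against 23.2%. By gene 4 of 10 were detected, against 31.9% of all genes, and 1 of 10 when detected probe sets had to outnumber the others of the gene, against 14.8%. These shares are close to the background and mark nothing about these genes. Only Fzd2 met the stricter rule.

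Each gene was then taken by 1 representative probe set, the detected one of highest mean log2 signal or else the brightest over both designs. Folds compare a signal above its limit with the dimmer one, raised to its limit where below it. In sample 5 against sample 1, 4 of the 10 genes were past 2-fold lower (Fzd1, Fzd2, Lrp6 and Sfrp2), 0 were past 2-fold higher, 3 lay within 2-fold and 3 could not be compared. Over all 9097 genes that could be compared, 8.63% were past 2-fold lower and 7.16% higher. In sample 5 against sample 4, 2 of 10 were lower (Fzd1 and Fzd2) and 0 higher, with 5 not comparable, against 5.81% and 5.15% of all genes. In sample 4 against sample 1, 2 were lower (Sfrp1 and Sfrp2) and 0 higher, against 3.71% and 4.06%, and 4 gave no fold. Of these 4, Fzd8 entered the percentages' rule with a difference set to 0, since its signal in sample 1 lay under the limit of sample 4. By its MOE430A probe set 1438620_x_at, Sfrp1 would be past 2-fold in sample 5 and not in sample 4, so the choice of probe set decides where it counts. The median log2 difference of the comparable members was -1.05 (7 genes), -0.39 (5) and -0.40 (6) in these 3 comparisons, leaving out differences set to 0, and that of all genes treated so was -0.01, -0.02 and 0.01. Without such genes the shares of all genes past 2-fold lower were 9.57%, 6.31% and 3.99%. Scaling the arrays to a common median shifts sample 5 against sample 1 by 0.14 on MOE430A and 0.11 on MOE430B (log2). A gene above the limit in 1 sample alone can be compared only through that sample, and the 3 comparisons share samples, so these counts are descriptions.

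Counted by probe set, the differences past 2-fold under this rule were lower ones, some of which could not have come out higher. A probe set under the limit in 1 of 2 samples can only be counted as lower in that sample. Without the filter and floor, 1 to 2 of the differences past 2-fold were higher in 3 of the 6 comparisons. On MOE430A 5 of 20 were past 2-fold lower in sample 5 than in sample 1, and 12 could not be compared, where 9.27% of all comparable probe sets were lower and 8.74% higher. These 5 belonged to 4 genes, since Fzd2 had 2 of them, beside Lrp6, Sfrp1 and Sfrp2. Those of Sfrp1 and Sfrp2 and 1418534_at of Fzd2 were under the limit in sample 5, so they could only come out lower there. Against sample 4, 3 of 20 were lower in sample 5, all of Fzd2, and 5 could be compared. The background there was 6.59% lower and 5.24% higher. In sample 4, 2 of 20 were lower than in sample 1, and 8 could be compared, of which 1 was set to 0. The background there was 3.67% lower and 4.15% higher. On MOE430B 2 of 3 could be compared, and 1 was lower in each comparison. It was Fzd1 in sample 5 against samples 1 and 4 (7.19% and 4.7% of all lower, 5.89% and 4.7% higher) and Sfrp1 in sample 4 against sample 1 (3.75% lower, 4.06% higher). Without any filter, the signal on MOE430A was highest in sample 1 for 12 of 20 probe sets, in sample 4 for 7 and in sample 5 for 1, against 38.3%, 31.4% and 30.3% of all. It was lowest in sample 1 for 4, in sample 4 for 4 and in sample 5 for 12, against 31.8%, 28.1% and 40.1%. Lrp6 (2.07-fold) and the MOE430B probe set of Sfrp1 (2.03-fold) lay just past the 2-fold line.

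**Figure D3:**
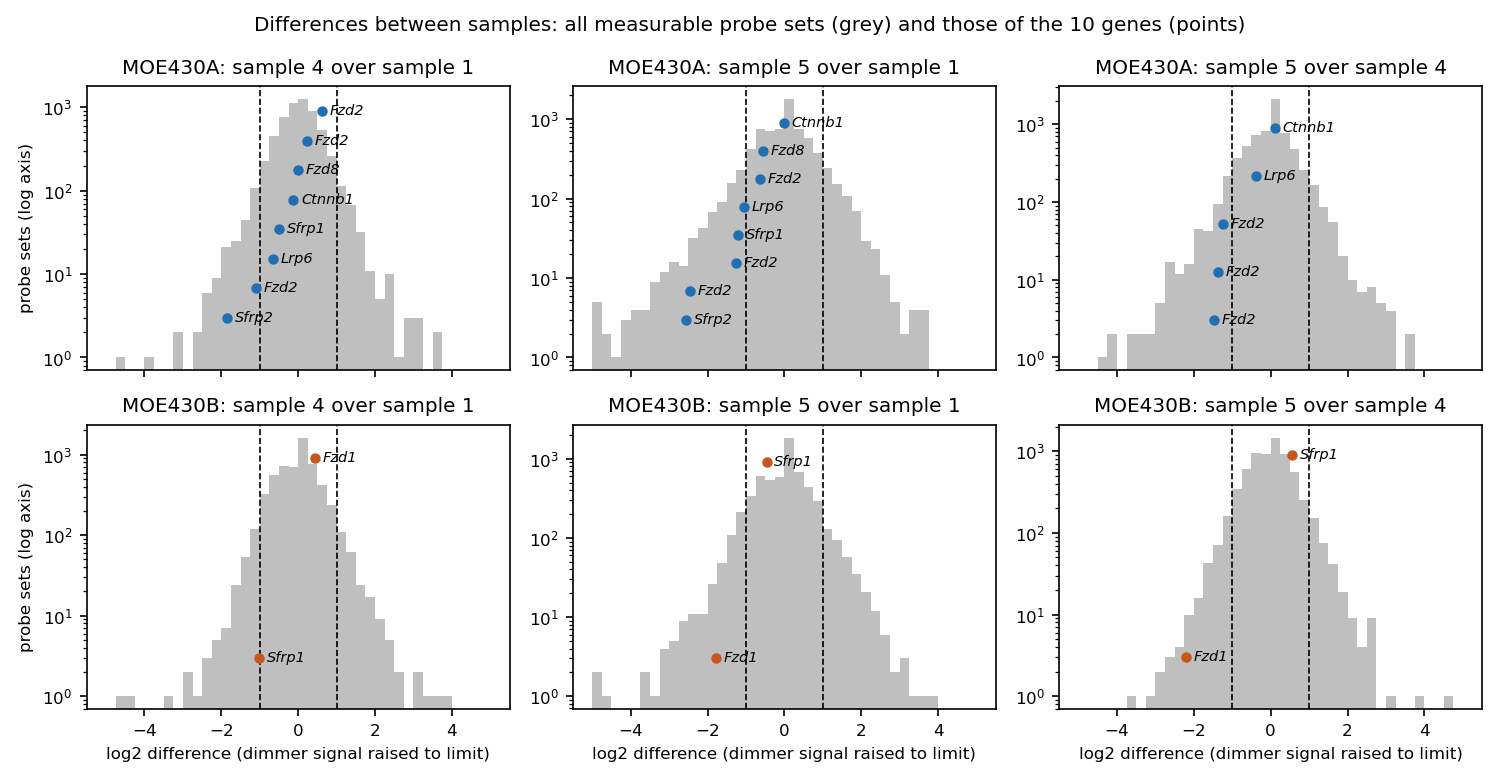
Histograms of the log2 difference between 2 samples (x, dimmer signal raised to its limit, values beyond 5 drawn at the edge, and those set to 0 in the central peak) over all comparable probe sets (y, number, log axis), with the comparable probe sets of the 10 genes as points whose height has no meaning; dashed lines mark 2-fold. In sample 5 over sample 1 on MOE430A 5 points lie left of the 2-fold line and 0 right of it, and Fzd1 lies at -1.79 and -2.22 in the MOE430B panels of sample 5.

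Pathway genes outside this set were read from 9 lists of 126 genes, of which 124 were measured and 39 detected, against 31.9% of all genes. Ligands were mostly below the limit, with 1 of 24 detected. Wnt5a, the main ligand of signalling apart from beta-catenin, read 1145, 2398 and 1783 and was above the limit in samples 4 and 5. Wnt2 read 46.6, 437 and 296 and Wnt4 1470.2, 813 and 1128, all under it. The detected gene was Rspo2, a secreted R-spondin that keeps Wnt receptors at the membrane, on 2 of 2 probe sets. On MOE430A it read 28136, 14714 and 2085, 13.5-fold lower in sample 5 than in sample 1 and 7.06-fold lower than in sample 4. The related Rspo3, named after its values were seen, read 9064, 2657 and 781, with sample 5 below the limit and at least 6.28-fold below sample 1. For ligand export, the Wnt carrier gene Wls was detected at 2656, 3581 and 1274, Tmed5, a cargo receptor gene of the secretory pathway, at 7597, 4968 and 12402, and the acyltransferase gene Porcn (808, 504 and 531) was not. Wls was detected on 1 of 4 probe sets and Tmed5 on 1 of 5.

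Other receptor genes had 6 of 17 detected and lay on both sides in sample 5. Lgr4, a receptor for R-spondins, read 12413, 22051 and 3305, which is 3.76-fold and 6.67-fold lower in sample 5 than in samples 1 and 4. Fzd4, also the receptor for norrin, read 5009.9, 4227 and 1767 (2.84-fold and 2.39-fold lower). Ryk, an atypical kinase that binds Wnt ligands, read 3589, 7744 and 1919.8, with sample 4 the highest. Fzd10 (4886, 2004 and 2191) was highest in sample 1. Fzd3 (3727, 3109 and 2242) and Fzd6 (3215, 1779 and 3369.9) stayed within 2-fold, and Ror2 (397, 434 and 1101) was not detected. Detection rested on 1 of 2 probe sets for Lgr4 and Fzd10, 1 of 3 for Fzd4 and Fzd6, 1 of 6 for Fzd3 and 2 of 3 for Ryk. In sample 5 against sample 1, 9 of the 17 genes could be compared. Of these, 3 were past 2-fold lower and 2 higher in sample 5, against 8.63% and 7.16% of all genes. The higher ones, named after their values were seen, were Fzd5 (1001.2, 3540.3 and 4228), at least 2.05-fold, and Znrf3 (1716, 2768 and 4314), a ligase that removes Frizzled receptors, at least 2.09-fold, both under the limit in sample 1.

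Other inhibitors had 1 of 12 measured genes detected, Apcdd1, a membrane-bound inhibitor, at 4090.0, 6836 and 7359 on 1 of 6 probe sets. Dkk2 was above the limit in samples 1 and 5 and read 3469.8, 1324 and 2127.5, at least 2.20-fold higher in sample 1 than in sample 4. Dkk1 (926, 519 and 747) and Frzb (352, 191 and 161) were under the limit. The inhibitors of the list shared no order of samples that could be measured.

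The destruction complex and Dishevelled list had most of its genes detected and 0 past 2-fold between sample 5 and either other sample. Of 19 genes 13 were detected, against 31.9% of all genes, and 16 could be compared in each of these comparisons. Among the 16, Dvl2 and Mark2 had differences set to 0 in both comparisons, and Csnk1e in that against sample 4. These gave no fold. The shares of all genes past 2-fold were 8.63% lower and 7.16% higher against sample 1, and 5.81% and 5.15% against sample 4. At these shares only a few of 16 genes would be past 2-fold, so the 0 is a description and marks nothing about the list. Gsk3b, the kinase that marks beta-catenin, read 20788, 25031 and 22714, and the scaffold gene Apc 4156, 3570.1 and 4582. Gsk3b was detected on 3 of 6 probe sets and Apc on 1 of 4. Gsk3a, Dvl1, Csnk1a1, Csnk1d, Csnk1g1 and Btrc were detected too, whereas Axin1 (994, 1059.6 and 489) was not. Of the detected genes, the largest difference of sample 5 from sample 1 was that of Btrc (3529.96, 2433 and 1831), -0.95 (log2). Btrc was detected on 1 of 5 probe sets. Fbxw11, like Btrc part of the ligase that marks beta-catenin for degradation, read 29924.5, 12191 and 19003, with sample 4 2.45-fold below sample 1. How this list compares with the receptors was not tested.

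Among nuclear partners 5 of 14 measured genes were detected. Tcf7l1, a Tcf factor that mostly represses, read 18360.4, 9949.8 and 2134, 8.60-fold lower in sample 5 than in sample 1 and 4.66-fold lower than in sample 4, and was detected on 2 of 2 probe sets. Bcl9l, a coactivator of beta-catenin, read 4374, 5250.2 and 2436 and was detected on 1 of 3 probe sets. Pygo2, Chd8 and Tle3 were detected within 2-fold in each comparison. Tcf7l2 was above the limit in sample 1 only (1646, 907 and 183), and Lef1 in sample 5 only (1965, 1518 and 2326).

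The cadherin and catenin list had 3 of 8 detected. Ctnna1, the alpha-catenin gene, was as level as Ctnnb1 at 31693, 31059 and 30092.5. Ctnnd1 read 8843, 22114 and 10589, and Cdh2 1443, 1872 and 1694. Detection rested on 2 of 4 probe sets for Ctnna1, 1 of 3 for Ctnnd1 and 1 of 2 for Cdh2. Cdh11, the cadherin of mesenchyme, read 7456, 2919 and 774, at least 7.71-fold lower in sample 5 than in sample 1.

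Genes often used as readouts of the pathway lay on both sides. Axin2, a direct target that feeds back on the pathway, was below the limit at 389.8, 291 and 452. Nkd1, another feedback gene, read 2491, 1227 and 1666 and was under the limit in sample 4. Ccnd1, the cyclin D1 gene, which many growth signals also control, read 6874, 7476 and 20289.9, with sample 5 2.95-fold above sample 1 and 2.71-fold above sample 4 and 3 of 3 probe sets detected. Cd44 read 3729, 9539 and 11428, with 2 of 4 probe sets detected. In sample 5 against sample 1, 6 of the 12 genes could be compared. Of these, 3 were past 2-fold higher and 2 lower, against 7.16% and 8.63% of all genes. Of the planar polarity and calcium list, 6 of 15 were detected, Vangl2, Vangl1 (2069, 3079 and 1273), Daam1 (5187, 9688 and 11809), Prickle2 (5441, 3612 and 2048), Rhoa and Rac1. Over the 124 genes, 12 were past 2-fold lower and 6 higher in sample 5 than in sample 1, and 11 lower and 2 higher than in sample 4. Of the 124, 66 and 65 could be compared, and the shares over all genes were 8.63% lower and 7.16% higher in the first comparison and 5.81% and 5.15% in the second.

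**Figure D4:**
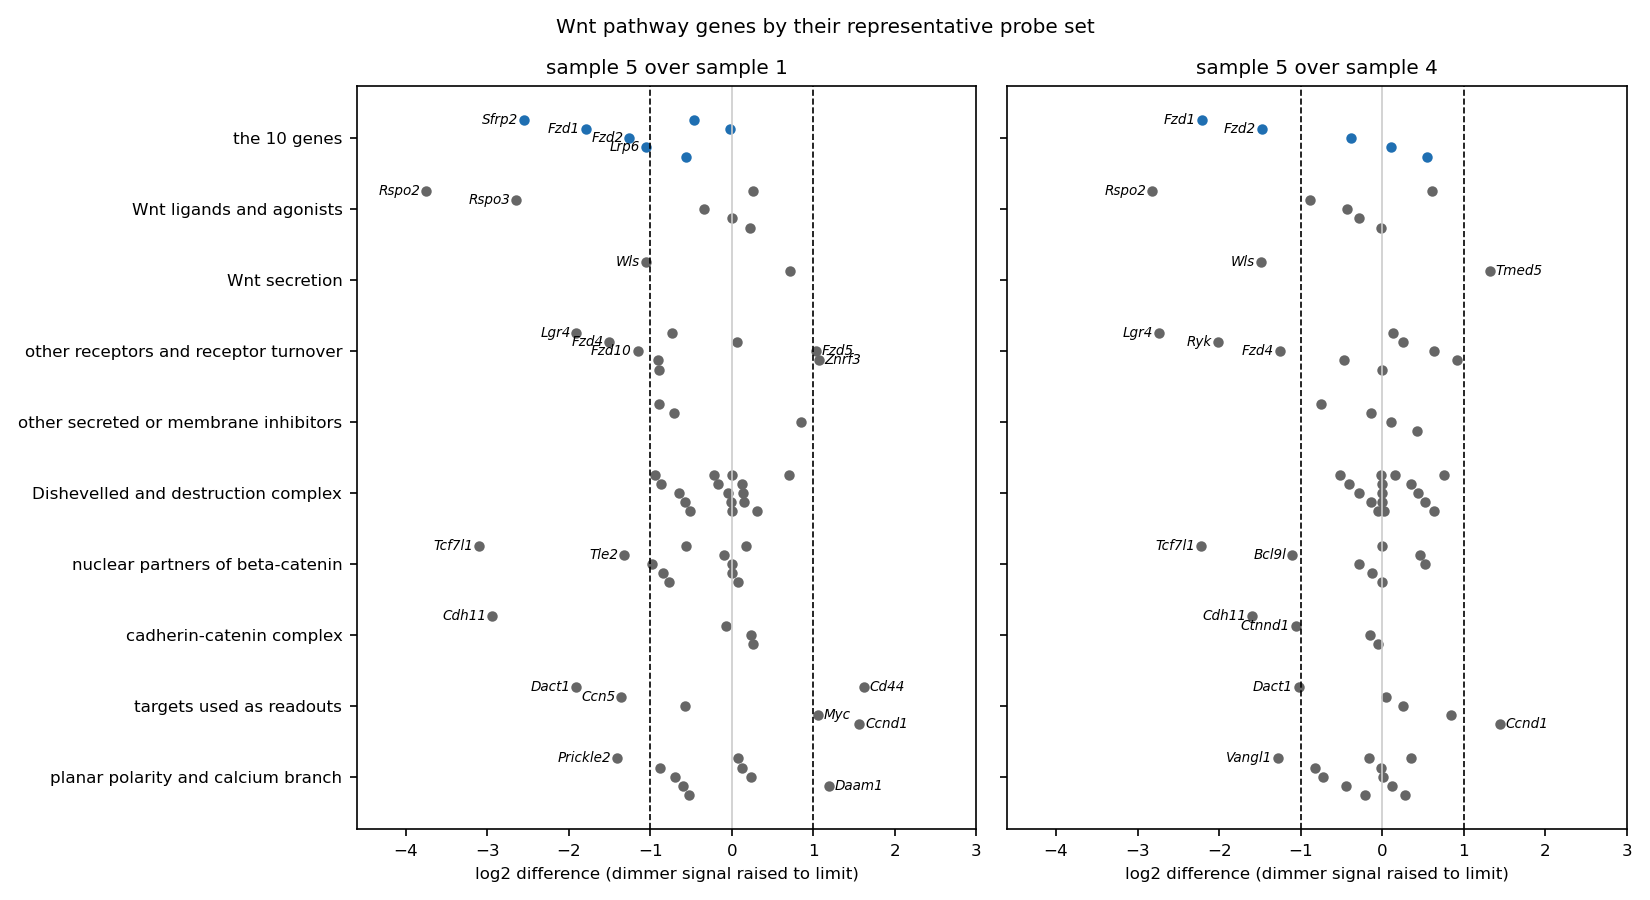
Each point is a gene by its representative probe set, placed by the log2 difference (x, dimmer signal raised to its limit) of sample 5 over sample 1 (left) and over sample 4 (right), with the 10 genes in blue on top and the 9 pathway lists below; the vertical place within a row has no meaning, and genes past 2-fold (dashed lines) are named. Rspo2, Tcf7l1, Lgr4, Fzd1 and Fzd2 lie left of the line in both plots, Ccnd1 lies right of it in both, and 0 genes of the destruction complex list lie outside the lines. Points at 0 include differences set to 0.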

How the data were processed

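Total RNA of 10T1/2 cells, prepared with RNeasy and labelled with biotin per the labels' protocols, was read on MOE430A and MOE430B arrays. The deposited values are linear intensity values, 1 signal per probe set and array, which the authors computed in MAS5, per the submitters' processing notes. For the MAS5 version and scaling target, nothing is given in the sources used here, and no detection calls were used. Deposited run settings (text and other values per the file headers) were used only to compare arrays with their labels. Signals were used as deposited, with limits and folds taken within a design. The representative probe set of a gene was the exception: it was the brightest by deposited signal over both designs, whose scales need not match. All 6 columns of values belonged to the samples and 0 were left unused.

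Probe sets were named by the platform annotation, and those assigned to several genes or none were left out: 20393 of 22690 named 1 gene on MOE430A and 14674 of 22575 on MOE430B. The background limit used 61 of 70 listed genes on MOE430A (85 probe sets) and 4 probe sets on MOE430B. A dimmer signal below its limit was raised to it, so that the fold is a lower bound, given as "at least". A pair of signals that both lay under the limit, or a brighter one under its own limit, gave no fold. A brighter signal under the other array's limit had its difference set to 0 in the shares over all genes, in the pathway lists and in the counts by probe set. No test was run, since there was 1 group with 1 array per sample and design. The steps were tried on simulated data in which only bright probe sets were changed and noise was small. Folds that rest on a signal near or under the limit were not checked there. Promoter windows and names came from RefSeq tables (GRCm38.p6), with 250 bases before each start. Python 3.11.15, pandas 2.3.3, numpy 2.4.6 and matplotlib 3.10.9 were used.

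All 10 genes are given with every probe set. Of each pathway list the first 3 genes were named whatever their values, with up to 6 further ones that were detected or past 2-fold on a detected probe set; Rspo3, Fbxw11, Fzd5, Znrf3 and the marker genes named fall outside this or were added after their values were seen. The members and lists were chosen with earlier results of these data known. Alternatives were other limits, folds, pseudocounts, normalisations, probe sets and arrays.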

Additional observations from a re-analysis of the deposited data

How the results depend on the processing

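No paired analysis was possible because there was 1 group, and the replicate numbers 1, 4 and 5 name its RNA samples. With a limit at the 99th percentile of background, 1 MOE430A probe set was detected in place of 4, 2 member genes in place of 4 (Fzd1 and Ctnnb1, without Fzd2 and Lrp6), 1 gene of Wnt secretion in place of 2 and 2 nuclear partners in place of 5. With the 90th percentile, 2 ligands and agonists and 3 other inhibitors were detected, in place of 1 each. That limit also gave 5 member genes in place of 4, through Fzd7. When 2 of 3 arrays sufficed, MOE430B had 2 member probe sets in place of 1, and the lists had 5 ligands and agonists, 4 other inhibitors, 4 targets and 11 planar polarity genes. When detected probe sets had to outnumber the others of a gene, 1 member gene was detected. Leaving out each array in turn gave 4 to 5 probe sets on MOE430A, 1 to 2 on MOE430B (2 without sample 4, through Sfrp1) and 4 to 5 genes.

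Member probe sets past 2-fold on MOE430A numbered 2 in sample 4 over 1, 5 in sample 5 over 1 and 3 in sample 5 over 4. At 3-fold they numbered 1, 2 and 0, and at 1.5-fold the first was 4. At 1.5-fold 1 of the 4 was higher, and all others named so far were lower. With no filter they were 10 (2 higher), 12 (1 higher) and 5 (0 higher). A pseudocount of 16 gave 10 (2 higher) and 11 (1 higher) for the first pair of comparisons, and one of 64 gave 6 and 9 (0 higher). The 99th percentile left 2 in sample 5 over 1 and 1 in sample 5 over 4, and leaving out probe sets of shared matches left 3 in sample 5 over 1. On MOE430B the 1 probe set in sample 4 over 1 became 0 at 3-fold, at the 99th percentile, with median scaling and with the gene-family background, which was added after seeing the data. In sample 5 over 4 it became 2, of which 1 was higher, with no filter and with either pseudocount. Log2 differences that rest on a signal under the limit moved most when the floor was replaced by a pseudocount of 16: Sfrp2 in sample 5 over 1 from -2.55 to -4.18 and in sample 4 over 1 from -1.85 to -3.13, and Fzd8 in sample 5 over 1 from -0.56 to -2.06. Fzd8 in sample 4 over 1 had no fold with the floor and -2.96 with that pseudocount. Ctnnb1 stayed within 0.20 of zero. The cause of these changes was not tested, apart from the stricter or looser rule itself. Signals near the limit, on MOE430B above all, bound what can be ordered.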
